A study of Arabidopsis thaliana with 19 samples.

Results

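Dormant seeds of the near isogenic line NIL*DOG1* were compared with dormant seeds of its recurrent parent Landsberg *erecta* (L*er*) across all 21313 genes measured. The 2 groups were chosen by the array titles and hold 10 of the 19 arrays of the series, 5 of each genotype. NIL*DOG1* carries DNA of the accession Cvi at the *DELAY OF GERMINATION 1* (*DOG1*) locus on chromosome 5, and the L*er* arrays are of wild-type seeds. The paper draws its NILs as L*er* outside their introgressed regions, whose bounds were not available here. The remaining 9 arrays are 3 each of NIL*DOG2* and NIL*DOG3*, with other Cvi segments, and of NIL*DOG6*, with a Kas-2 segment. They share the L*er* background and the seed treatment and serve here as a second comparison. All seeds were whole, dormant and imbibed for 24 h in water. Their depth of dormancy differed in the paper's germination tests. Seeds of NIL*DOG1*, NIL*DOG3* and NIL*DOG6* were more dormant than those of L*er*, and seeds of NIL*DOG2* were less so. The extraction text of the labels speaks of dry seeds, whereas titles, treatment and methods give imbibed ones. Each replicate was a bulk of plants grown in a block design. The methods give 3 replicates, so where replicates 4 and 5 came from is not given in the sources used here and p-values measure the spread between these arrays. Only a single line with Cvi DNA at *DOG1* was measured, so the *DOG1* allele and every other Cvi gene that line carries cannot be told apart.

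Seed dormancy is the block that keeps a viable, freshly harvested seed from germinating under favourable conditions. *DOG1* encodes a seed protein that sets the depth of this block, and the Cvi allele is known for deep dormancy. Abscisic acid maintains dormancy, whereas gibberellin promotes germination, partly through enzymes and expansins that loosen the cell walls of the elongating embryo and of the surrounding endosperm.

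Levels are log2 values after the authors' normalization, so a difference of 1 is a doubling of the array signal. The array medians over all genes ran from 4.72 to 4.92 and the lower quartiles from 3.11 to 3.24 in the 10 arrays, so that values near 3 lie at the low end of the scale, and no detection check was run. Pearson's r across genes was 0.978 to 0.991 between L*er* arrays and 0.983 to 0.992 between NIL*DOG1* arrays. The identity as seed was checked with storage protein and oil body genes, whose median level was 13.30 to 13.45 in the L*er* arrays and 13.32 to 13.58 in the NIL*DOG1* arrays. Among the marker genes of other cell types, 0 of 4 endosperm, 0 of 5 seed coat, 0 of 1 leaf and 0 of 1 pollen genes measured differed between the genotypes (limma; 1 of these 11, a seed coat gene, had an unadjusted p under 0.05). Their median levels overlapped, at 2.80 to 3.25 in L*er* and 3.1 to 3.45 in NIL*DOG1* for endosperm and at 3.13 to 3.91 and 3.12 to 3.59 for the seed coat. These levels lie at or near the low end of the scale, so a change in the share of these tissues could go unseen. The array labelled NIL*DOG6* replicate 1 went against its label. Of the 17 chromosome 3 genes at which NIL*DOG6* replicates 2 and 3 both differed from L*er* by at least 2 in the same direction, it had less than 0.5 of their mean difference at 16, so the count against the other NILs and the NIL*DOG6* means most affected are also given without it. Fewer cells of a type and less RNA per cell cannot be told apart in whole seeds.

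NIL*DOG1* differed from L*er* at 250 genes, of which 78 were higher and 172 lower (limma, p adjusted by Benjamini-Hochberg over all genes, threshold 0.05). These are 1.17% of the genes tested, with 0.366% higher and 0.807% lower. At an adjusted p under 1e-04, 22 genes (0.103%) remained, 15 of them higher. In 177 of the 250 genes the 5 values of each genotype did not overlap, which was so for 456 of all genes (2.14%). The largest gains and falls named by rule below were picked among genes without overlap, so its absence there is part of the choice. The median difference over all genes was 0.02. Chromosome 5 held 137 of the called genes (2.81% of its 4881 genes), and the other chromosomes with the organelle genes held 113 (0.688% of 16432 genes).

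Along the chromosomes the called genes were unevenly placed. In bins of 100 neighbouring genes, runs of 2 or more bins with at least 4 called genes each occurred at 3 places, and these stretches were set after the values were seen and were not tested. The first covered 300 genes at the top of chromosome 5, with 28 called genes from AT5G01030 to AT5G04160. The second covered 1000 genes of chromosome 5, with 96 called genes from AT5G36890 to AT5G48940, and includes *DOG1*. The third covered 300 genes of chromosome 4, with 18 called genes from AT4G17880 to AT4G20480. Together they held 142 of the 250 called genes in 7.51% of the genes, and all 22 genes past the stricter threshold. Whether the stretches at the top of chromosome 5 and on chromosome 4 are also Cvi DNA was not tested. For genes inside an introgressed region, a change in transcript level and an unequal match of the array's probes to the Cvi and L*er* sequences cannot be told apart. The probe sequences were not used here.

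**Figure D1:**
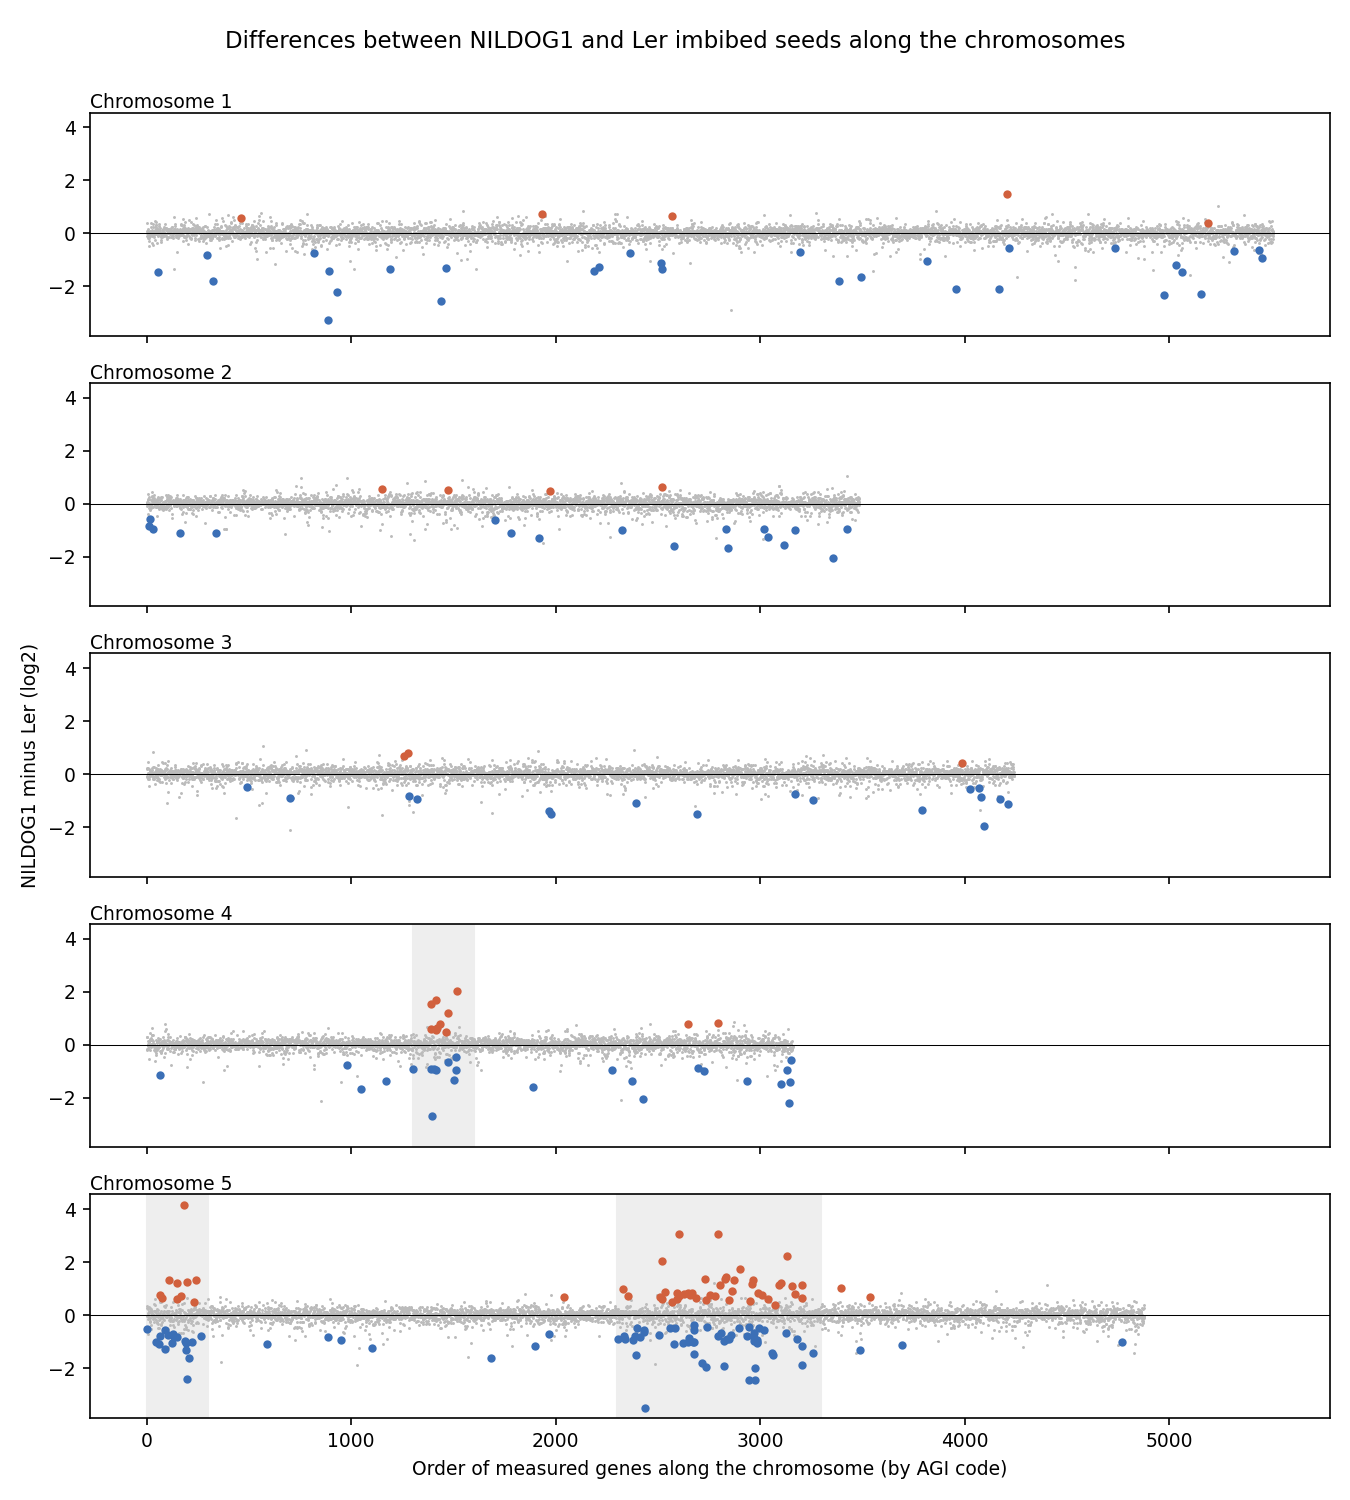
Difference in log2 level between NILDOG1 and Ler (mean of 5 arrays each) for each measured gene in its order along chromosomes 1 to 5. Orange points are genes called higher and blue points genes called lower at an adjusted p under 0.05, grey points are the other genes, and grey bands are the 3 stretches. The bands hold higher and lower genes side by side, whereas 91 of the 108 called genes outside them are lower.

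The 2 directions were balanced differently in and out of these stretches. Inside, 61 genes were higher and 81 lower in NIL*DOG1*. Outside, 17 were higher and 91 lower, spread over the 5 chromosomes, with 13 of them on chromosome 5. Single bins outside also reached at least 4 called genes, and the rule of 2 or more bins left them out. The last bin of chromosome 4 (AT4G39480 to AT4G40090) had 5 called of 61 genes. A bin of chromosome 3 (AT3G60560 to AT3G61870) had 4 of 100, and in both bins all called genes were lower. The counts also differed in how far they rested on single arrays. Leaving out any 1 of the 10 arrays left between 96 and 189 called genes in the stretches, against between 26 and 493 outside. The highest counts were without L*er* replicate 2 (493 outside) and the lowest without L*er* replicate 4 (26) or L*er* replicate 1 (32). Of the called genes, 83 of 142 in the stretches and 23 of 108 outside were called whichever of these arrays, or NIL*DOG6* replicate 1, was left out.

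*DOG1* itself (AT5G45830) was at 3.76, 4.43, 4.12, 3.89 and 3.64 in L*er* replicates 1 to 5 and at 4.48, 4.67, 5.69, 4.26 and 4.89 in those of NIL*DOG1*. All NIL*DOG1* arrays but replicate 4 lay above every L*er* array, and replicate 4 lay below L*er* replicate 2. The difference was 0.83 ± 0.20 (SE), with an adjusted p of 0.0479 in limma, just under the threshold. The call was lost without any of 8 of the 10 arrays, the exceptions being L*er* replicate 2 and NIL*DOG1* replicate 4, with adjusted p-values up to 0.144. Against the mean of the other NILs the difference was 0.87 (adjusted p = 0.0133), whose own means were 3.65 (NIL*DOG2*), 4.23 (NIL*DOG3*) and 3.91 (NIL*DOG6*). Of the *DOG1*-like genes of chromosome 4 only DOGL4 (AT4G18650) was measured, at 8.16 ± 0.59 in L*er* and 8.81 ± 0.29 in NIL*DOG1* (SD, n = 5; adjusted p = 0.21).

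At the top of chromosome 5 the largest difference of the whole comparison was found at *LUL1* (AT5G03200), a RING-type ubiquitin ligase related to *LOG2* (AT3G09770). It was at 4.04, 3.96, 4.29, 3.85 and 4.09 in L*er* and at 8.06, 8.28, 8.46, 8.27 and 8.05 in NIL*DOG1*. The groups were far apart, with a difference of 4.18 ± 0.17 (SE) or 18.1-fold (adjusted p = 1.27e-11). The other NILs were at 4.01, 4.03 and 3.82 on average, as L*er*. Its relatives *LUL2*, *LOG2* and *LUL4* differed by 0.41, 0.20 and -0.04 and were not called.

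Further genes near *LUL1* differed in both directions. *RHL2*, a subunit of DNA topoisomerase VI, was at 6.92 ± 0.13 in L*er* and 8.14 ± 0.23 in NIL*DOG1* (SD, n = 5), and the adjacent clock gene *PRR7* was at 6.98 ± 0.34 and 6.15 ± 0.33. The groups did not overlap for *RHL2* (difference 1.23, adjusted p = 0.000139), whereas for *PRR7* NIL*DOG1* replicate 3, at 6.67, lay above the lowest L*er* array (difference -0.83, adjusted p = 0.0152, lost if NIL*DOG1* replicate 2 or L*er* replicate 5 was left out). Of 11 clock genes measured 1 was called, *PRR7*, beside 1.17% of all genes, and their median difference was 0.25. The number called was 4 without L*er* replicate 2 and 0 if NIL*DOG1* replicate 2 or L*er* replicate 5 was left out. AT5G03345 was at 8.89, 8.37, 9.52, 8.91 and 9.50 in L*er* and at 6.13, 7.0, 6.14, 7.37 and 6.46 in NIL*DOG1*, all lower (difference -2.42, adjusted p = 1.91e-05). The gene before it by AGI code, *AtCDC48C* (AT5G03340, an AAA-type ATPase), was lower by a difference of -1.33, and *CDC25* (AT5G03455, a phosphatase) by -1.61. These genes, other than *PRR7* and those given by the rule for named genes, were picked after their values were seen.

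In the middle stretch of chromosome 5 the highest gains were those of AT5G43450, *RPL27* and AT5G47550. *RPL27* (AT5G40950), a protein of the plastid ribosome, was at 6.50, 6.17, 6.38, 6.92 and 6.39 in L*er* and at 9.82, 9.65, 9.58, 9.06 and 9.54 in NIL*DOG1*. Every NIL*DOG1* array exceeded every L*er* array (difference 3.06 ± 0.19, SE; adjusted p = 4.31e-09). AT5G43450 was at 3.00, 3.85, 3.44, 3.51 and 3.67 in L*er*, close to the low end of the scale, and at 6.70, 6.51, 7.22, 5.98 and 6.44 in NIL*DOG1* (difference 3.08, adjusted p = 2.54e-09). AT5G47550 was at 8.62 ± 0.25 and 10.86 ± 0.12 (SD, n = 5), with no overlap (difference 2.25, adjusted p = 1.88e-06).

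*TRX2* (AT5G39950), an h-type thioredoxin of redox control, was at 7.25, 7.20, 7.10, 6.94 and 7.17 in L*er* and at 9.20, 9.26, 9.35, 8.84 and 9.15 in NIL*DOG1*. Its difference of 2.03 ± 0.15 (SE) was many times the SD of either group (0.12 and 0.20; adjusted p = 7.32e-08). The receptor kinase *GSO2*, which acts in forming the embryo surface, was higher by 1.73 (adjusted p = 0.00147), and AT5G43930 by 1.43 (adjusted p = 7.07e-06), both without overlap. Among called genes chosen after their values were seen, *AOS*, which encodes an enzyme of jasmonate synthesis, was at 3.67 ± 0.06 in L*er* and 5.03 ± 0.26 in NIL*DOG1* (SD, n = 5), and *CLH2*, a chlorophyllase, was at 4.33 ± 0.27 and 5.68 ± 0.28. Both were higher by 1.35 and without overlap between the genotypes.

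The deepest loss on chromosome 5 was that of AT5G38780. It was at 8.70, 9.42, 8.95, 8.99 and 9.62 in L*er* and at 5.45, 5.54, 5.93, 5.94 and 5.35 in NIL*DOG1*, and the other NILs were at 9.41, 9.54 and 10.13 on average. The NIL*DOG1* arrays stood apart from all 4 other genotypes (difference from L*er* -3.50 ± 0.16, SE, or 11.3-fold lower, adjusted p = 3.84e-11). *RPS4* (AT5G45250), a nucleotide-binding immune receptor for bacterial disease, was at 5.20, 6.29, 5.78, 5.55 and 6.56 in L*er* and at 3.19, 3.28, 3.41, 3.71 and 3.56 in NIL*DOG1* (difference -2.44, adjusted p = 1.98e-06). Its partner and neighbour *RRS1* (AT5G45260) was low in both, at 3.69 ± 0.12 and 3.23 ± 0.14 (SD, n = 5), and was lower in NIL*DOG1* by a difference of -0.45 (adjusted p = 0.021, lost if NIL*DOG1* replicate 2 or L*er* replicate 1 or 3 was left out).

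The remaining falls named by rule on chromosome 5 were AT5G42700 (-1.96), AT5G43830 (-1.92), AT5G48350 (-1.87) and AT5G42420 (-1.79), each without overlap and with adjusted p-values from 1.87e-06 to 0.00198. AT5G42700 was at 2.56 ± 0.26 in NIL*DOG1* (SD, n = 5), at the low end of the scale. AT5G43830 was also low in NIL*DOG3* (4.35) and NIL*DOG6* (4.75, and 4.22 without replicate 1), and its difference from the other NILs did not pass the test (-0.72, adjusted p = 0.251). The other 6 falls and all 7 gains named on chromosome 5 passed it.

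**Figure D2:**
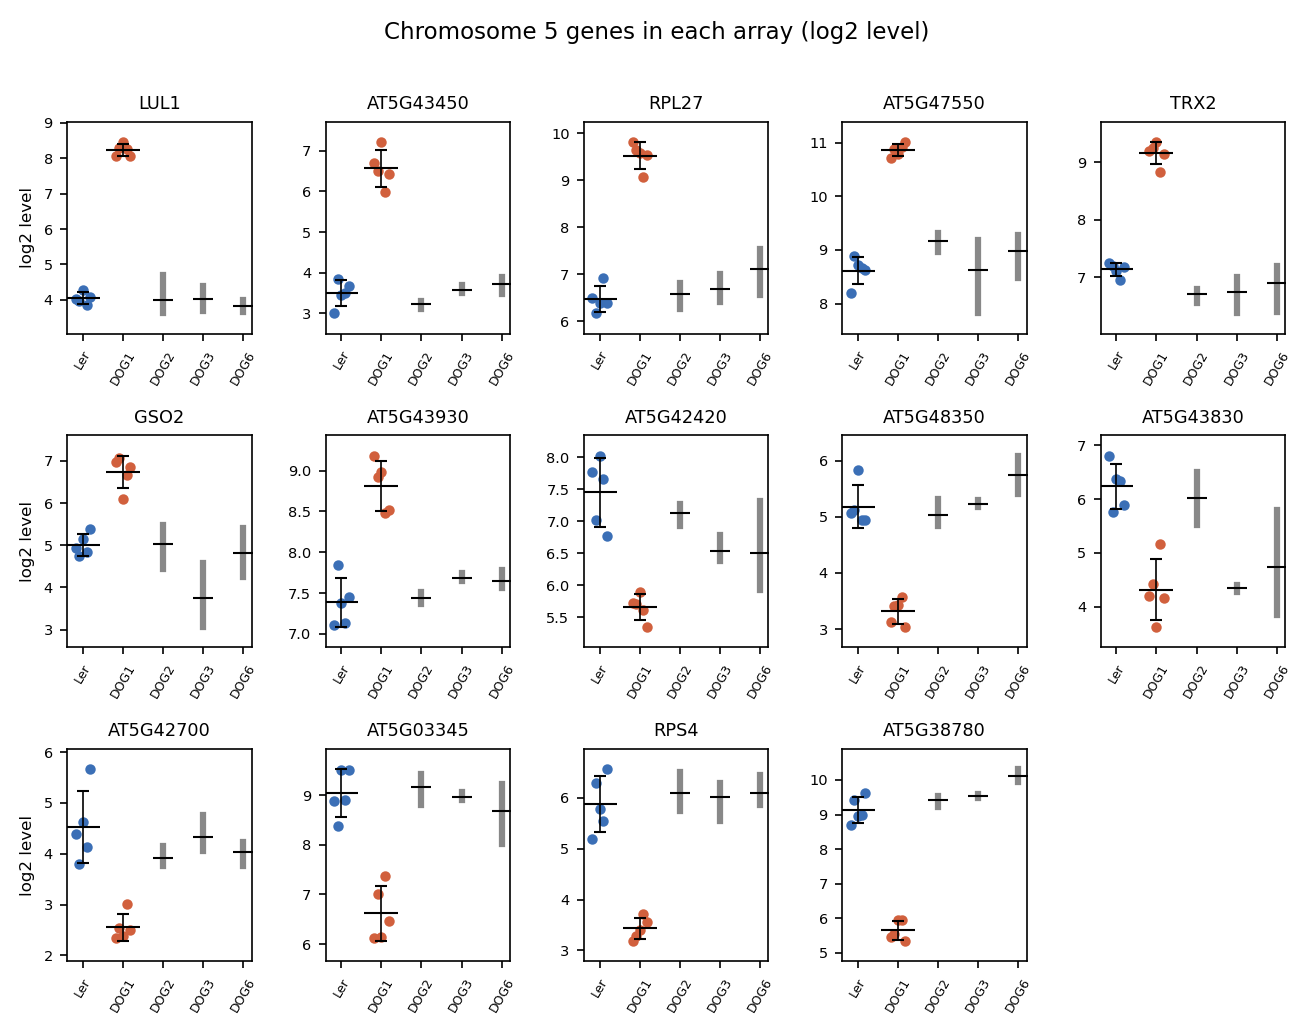
Log2 level of the 14 chromosome 5 genes named by rule, ordered from the largest gain to the deepest loss in NILDOG1; points are the 5 arrays of Ler (blue) and NILDOG1 (DOG1, orange), black lines with caps are mean ± SD, and grey bars with a line are the range and mean of the 3 arrays of each other NIL. The rule picked only genes whose groups of 5 do not overlap, and AT5G38780 falls from 9.14 in Ler to 5.64 in NILDOG1.

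The chromosome 4 stretch showed the same mixture of directions, with 9 genes higher and 9 lower. AT4G18975 was at 8.15, 8.37, 8.76, 8.25 and 8.43 in L*er* and at 6.07, 5.93, 6.01, 5.85 and 4.71 in NIL*DOG1*, where replicate 5 was the lowest and the groups did not overlap (difference -2.68, adjusted p = 2.86e-07). AT4G20480 was at 7.02 ± 0.23 and 9.06 ± 0.19 (SD, n = 5; difference 2.04, adjusted p = 6.3e-09). AT4G18920 was higher by 1.54, *FRS1* (a FAR1-related transcription factor) by 1.2 and *VPS54* (a subunit of a vesicle tethering complex) by 0.76, each without overlap. The carotenoid dioxygenase gene listed as *NCED4* was picked after its values were seen. It was at 3.14, 4.56, 3.52, 3.04 and 3.01 in L*er* and at 5.05, 5.24, 6.37, 5.05 and 4.02 in NIL*DOG1*. All L*er* values but that of replicate 2 lay near the low end of the scale. L*er* replicate 2 and NIL*DOG1* replicate 5 overlapped (difference 1.69, adjusted p = 0.0112).

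Outside the stretches the genes with the largest differences were lower in NIL*DOG1*. *PMEPCRA* (AT1G11580), a pectin methylesterase, was at 8.83, 7.19, 7.90, 9.11 and 8.29 in L*er* and at 4.48, 4.96, 2.86, 7.12 and 5.50 in NIL*DOG1*. NIL*DOG1* replicate 4 came close to the lowest L*er* array, replicate 2, and the groups did not overlap (difference -3.28 ± 0.61, SE, or 9.71-fold lower; adjusted p = 0.00837). *TUA4* (AT1G04820), an alpha tubulin, was at 7.68, 5.98, 6.70, 7.37 and 6.85 in L*er* and at 5.08, 5.11, 4.57, 5.77 and 5.04 in NIL*DOG1*. Its 2 extremes were again L*er* replicate 2 and NIL*DOG1* replicate 4 (difference -1.80, adjusted p = 0.032). That call was lost without any of the other 8 arrays, with adjusted p-values up to 0.111.

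*CB5-C*, a cytochrome b5, was at 6.64 ± 0.80 in L*er* and 4.59 ± 0.68 in NIL*DOG1* (SD, n = 5; difference -2.06, adjusted p = 0.00622). AT3G61820 was at 7.94, 6.67, 6.87, 7.69 and 7.15 in L*er* and at 5.39, 5.17, 4.56, 6.03 and 5.46 in NIL*DOG1* (difference -1.94, adjusted p = 0.00115). Both were called without any single array. AT1G62500 (-2.11, adjusted p = 0.03) and AT1G53070 (-1.80, adjusted p = 0.0206) were also lower without overlap, but their calls were lost without 7 and 5 of the 10 arrays, L*er* replicate 1 and NIL*DOG1* replicate 3 among them in both cases.

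Of the 17 gains outside the stretches the largest was that of AT1G65500, at 4.85 on average in L*er* and 6.33 in NIL*DOG1*. Its groups overlapped (difference 1.48, adjusted p = 0.0469), and the call was lost without 7 of the 10 arrays, L*er* replicates 2 to 5 and NIL*DOG1* replicates 2, 3 and 5. The difference from the other NILs was 1.37 (adjusted p = 0.0317). The 3 largest without overlap on chromosomes 1 to 4 were AT3G15630 (0.81), AT3G15450 (0.68) and AT1G33590 (0.64). AT3G15450 was at 6.05, 6.1, 5.86, 5.84 and 6.00 in L*er* and at 6.85, 6.99, 6.11, 6.50 and 6.80 in NIL*DOG1* (adjusted p = 0.0149), and the other NILs were at 6.65, 6.68 and 6.83, near NIL*DOG1* and not L*er*. AT1G33590 showed the opposite order, with the other NILs at 3.58, 3.27 and 3.53, near the 3.65 of L*er* and below the 4.28 of NIL*DOG1*. The calls of AT1G33590, AT3G15450 and AT3G15630 were lost without 8, 3 and 1 of the 10 arrays, L*er* replicate 4 among them each time. Among gains noticed after the values were seen, *SEN1* (AT4G35770), a gene induced in senescence and darkness, was higher by 0.80 (adjusted p = 0.0205), and *LTI78*, a gene induced by cold and abscisic acid, by 0.70 (adjusted p = 0.0487). Both calls were lost without L*er* replicate 1, and 4 and 9 single arrays ended them.

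The position groups also differed in their levels in the other NILs. Over the 91 lower genes outside the stretches, the median level per array was 6.07, 5.07, 5.54, 5.95 and 5.76 in L*er* and 4.44, 4.43, 4.12, 4.91 and 4.44 in NIL*DOG1*. The 3 NIL*DOG2* arrays, at 5.69, 6.02 and 5.63, lay within the range of L*er*, and the 3 NIL*DOG3* arrays, at 4.46, 4.27 and 4.20, within that of NIL*DOG1*. NIL*DOG6* replicates 2 and 3 were at 4.42 and 4.30, and the array labelled NIL*DOG6* replicate 1 was at 5.40. Among the L*er* arrays replicate 2 was the lowest of these genes, and among the NIL*DOG1* arrays replicate 4 was the highest.

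Over the 81 lower genes in the stretches, the median level was 6.37 to 6.58 in L*er* and 5.35 to 5.63 in NIL*DOG1*, and each array of the other NILs was between 6.08 and 6.44. For the 61 higher genes in the stretches it was 5.73 to 6.13 in L*er*, 6.65 to 7.07 in NIL*DOG1* and 5.77 to 6.25 in the other NILs. The other NILs thus lay clear of NIL*DOG1* for both sets of genes in the stretches. The called genes were chosen by the NIL*DOG1* and L*er* arrays, so the gap between these 2 genotypes is a description. The gap to the other NILs uses the same NIL*DOG1* arrays and is not independent of that choice.

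**Figure D3:**
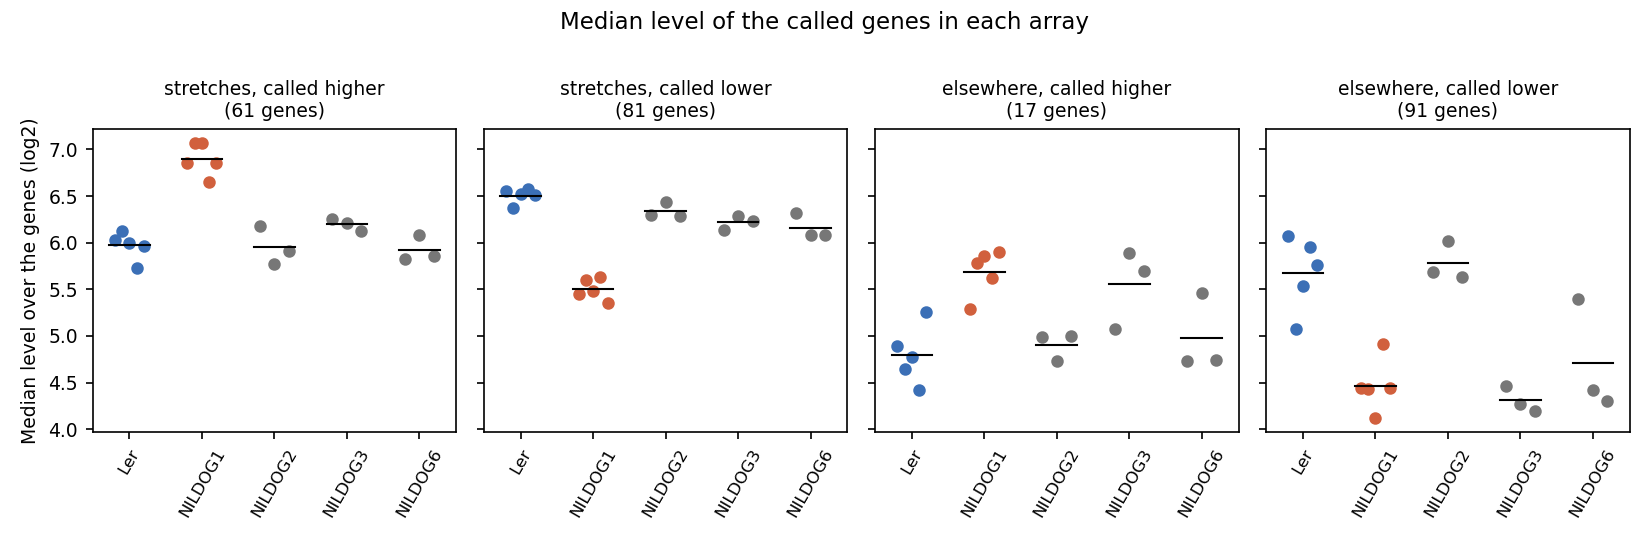
Median log2 level per array over the genes called in NILDOG1 against Ler, in 4 sets by position (the 3 stretches or elsewhere) and direction; each point is 1 of the 19 arrays and each line the mean of a genotype. For the lower genes elsewhere NILDOG3 (4.20 to 4.46) lies with NILDOG1 (4.12 to 4.91), while in the stretches the other NILs lie apart from NILDOG1.

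NIL*DOG1* was also tested against the mean of the other NILs. This contrast shares the NIL*DOG1* arrays with the first and no L*er* array. It called 279 genes (1.31%), 157 higher and 122 lower in NIL*DOG1*. The other NILs have replicates 1 to 3 only, and the count was 904 with replicates 1 to 3 of every genotype, 1322 with the replicate number as a block, 1434 with a term for the replicate set and 330 without NIL*DOG6* replicate 1. In these settings 191, 219, 230 and 158 of the called genes lay in the stretches, and 713, 1103, 1204 and 172 elsewhere. Of these 279, 155 were on chromosome 5 (3.18% of its genes) and 156 in the 3 stretches (9.75% of their genes), against 123 elsewhere (0.624%). Side by side, the genes called lower than in L*er* had a median difference of -0.92 from L*er* and -0.67 from the other NILs in the stretches, and of -1.12 and -0.42 elsewhere. The genes called higher had medians of 0.84 and 0.92 in the stretches and of 0.67 and 0.34 elsewhere.

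Of 18 measured genes of cell wall loosening, 4 were lower in NIL*DOG1* and 0 higher. The median difference of the list was -1.07 with 15 members below 0, beside 0.02 for all genes and 0.807% of genes called lower. This list and the gibberellin lists were chosen with earlier results of these data known, so their counts and medians are a description. The expansins *EXPA8*, *EXPA3* (AT2G37640, listed as *EXP3*) and *EXPA15*, which loosen walls during growth, differed by -1.69, -1.60 and -1.09, and *XTH16*, which remodels xyloglucan, by -1.41 (adjusted p-values from 0.00703 to 0.0438). *XTH19* (-2.11), *XTH5* (-1.88), *EXPA2* (-1.78) and *EXPA1* (-1.75) did not pass the test. The mannanases *MAN2*, *MAN5*, *MAN6* and *MAN7*, which hydrolyse mannans of the endosperm wall, differed by 0.16, 0.30, -0.06 and -0.26 and were not called.

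*XTH16* was at 5.66, 4.92, 4.83, 5.99 and 5.14 in L*er* and at 3.54, 3.80, 3.40, 4.74 and 4.04 in NIL*DOG1*, where replicate 4 came closest to L*er* without overlap. *EXPA8* was at 7.69, 6.83, 7.03, 8.37 and 7.42 in L*er* and at 5.44, 5.81, 5.08, 6.26 and 6.31 in NIL*DOG1*, again without overlap. The number of called members of this list was 10 without L*er* replicate 2, 6 without NIL*DOG1* replicate 4, 7 without NIL*DOG6* replicate 1, 3 without L*er* replicate 5, 2 without NIL*DOG1* replicate 2 or 5 or L*er* replicate 3, and 1 without NIL*DOG1* replicate 1 or 3 or L*er* replicate 1 or 4, while the median stayed between -1.32 and -0.90. Against the mean of the other NILs the list had a median of -0.05 and 0 called members. That mean joins lines of unlike level. At each member called against L*er*, NIL*DOG2* averaged near or above L*er*, whereas NIL*DOG3* averaged below NIL*DOG1*. NIL*DOG2* averaged 8.14 for *EXPA8* and 7.62 for *EXPA3*, beside 7.47 and 7.92 for L*er*. NIL*DOG3* averaged 5.42 and 4.90, beside 5.78 and 6.31 for NIL*DOG1*. The NIL*DOG6* means were 6.29 and 5.94 (5.71 and 5.19 without replicate 1). Over all 33 genes named *XTH* the median was 0.02, and over the 21 alpha expansins by name it was -0.18.

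Gibberellin synthesis was represented by 10 genes, 2 of them lower and 0 higher, beside 0.807% of all genes called lower. The median was -0.41. *GA20OX2*, a gibberellin 20-oxidase, was at 4.53, 4.89, 4.27, 5.09 and 4.75 in L*er* and at 3.3, 3.29, 3.23, 3.73 and 3.29 in NIL*DOG1*. No array overlapped, and the difference of -1.33 ± 0.21 (SE; adjusted p = 0.00136) passed the test without any single array. NIL*DOG2* was above L*er* at 5.56, NIL*DOG3* was at 3.72 and NIL*DOG6* at 4.51 (4.17 without replicate 1), and the difference from their mean was -1.23 (adjusted p = 0.000596).

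*GA3OX2*, which encodes the final step to active gibberellin, was at 5.05, 4.44, 4.28, 5.41 and 5.16 in L*er* and at 3.75, 3.71, 3.46, 4.58 and 4.14 in NIL*DOG1*. NIL*DOG1* replicate 4 overlapped L*er* replicates 2 and 3 (difference -0.94, adjusted p = 0.0355). That call was lost without 6 of the arrays (L*er* replicates 1, 4 and 5 and NIL*DOG1* replicates 1, 2 and 3), with adjusted p-values up to 0.124. The difference of *GA3OX2* from the mean of the other NILs did not pass the test (-0.36, adjusted p = 0.457). Here too the lines differed. NIL*DOG2* averaged 4.96, near the 4.87 of L*er*, whereas NIL*DOG3* averaged 3.66, below the 3.93 of NIL*DOG1*. The NIL*DOG6* mean was 4.25 (4.11 without replicate 1). *GA3OX1* (-0.90), *GA20OX3* (-0.76) and *GA20OX1* (-0.55) were not called. Of 5 genes of gibberellin breakdown and 9 of gibberellin signalling 0 were called (limma; 0 and 2 with an unadjusted p under 0.05), and their medians were 0.12 and -0.09.

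Genes of abscisic acid did not pass the test. Of 9 synthesis, 4 breakdown and 24 signalling genes 0 were called in limma, with 1, 0 and 6 at an unadjusted p under 0.05, and the medians were 0.08, 0.11 and 0.19. Without L*er* replicate 2, 1 synthesis and 3 signalling genes were called, and 1 signalling gene without NIL*DOG6* replicate 1. The receptor gene *PYL7* had the highest difference (0.79, adjusted p = 0.0738), whereas *PYL4*, *PYL2* and *PYR1* were at -0.49, -0.46 and -0.40. *ABI3*, *ABI4* and *ABI5*, transcription factors of the abscisic acid response in seeds, differed by 0.19, -0.40 and 0.32.

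Late embryogenesis abundant proteins protect the dry seed, and of 24 such genes 0 were called (limma; 9 with an unadjusted p under 0.05, 4 called without L*er* replicate 2, and 1 without NIL*DOG1* replicate 4 or NIL*DOG6* replicate 1), with a median of 0.22 and 20 above 0. Within the list *COR47* (-1.35) and *LTI30* (0.68) were the extremes. Of 10 maturation regulators, 13 storage and oil body genes, 11 seed heat shock genes and 15 genes of storage oil breakdown, 0 were called in each (limma; 2, 2, 1 and 0 with an unadjusted p under 0.05). Without L*er* replicate 2, 1 maturation regulator and 1 heat shock gene were called, and the heat shock median was 0.36. Their medians were 0.16, 0.08, 0.10 and -0.02. The 20 dormancy and germination regulators (median 0.05), the 7 nitrate genes (0.25) and the 13 flavonoid genes (0.01) had 0 called in limma and 3, 1 and 1 with an unadjusted p under 0.05.

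The study's list of genes higher in dormant than in after-ripened seeds of all 5 genotypes (D-up) had 1 called gene of 46. Its median was 0.32 with 43 members above 0, beside a median of 0.02 and 0.366% called higher over all genes. The called gene AT4G33980 was at 6.82, 7.38, 7.0, 6.37 and 6.96 in L*er* and at 7.97, 7.78, 8.09, 7.20 and 7.42 in NIL*DOG1*, with overlap at L*er* replicate 2 (difference 0.79, adjusted p = 0.0373, lost without 7 of the 10 arrays). Without L*er* replicate 2, 7 members were called, and without any other L*er* array 0 were, as without NIL*DOG1* replicate 1, 2 or 3. The study chose this list on seeds of these genotypes, so it is not independent evidence of a direction.

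**Figure D4:**
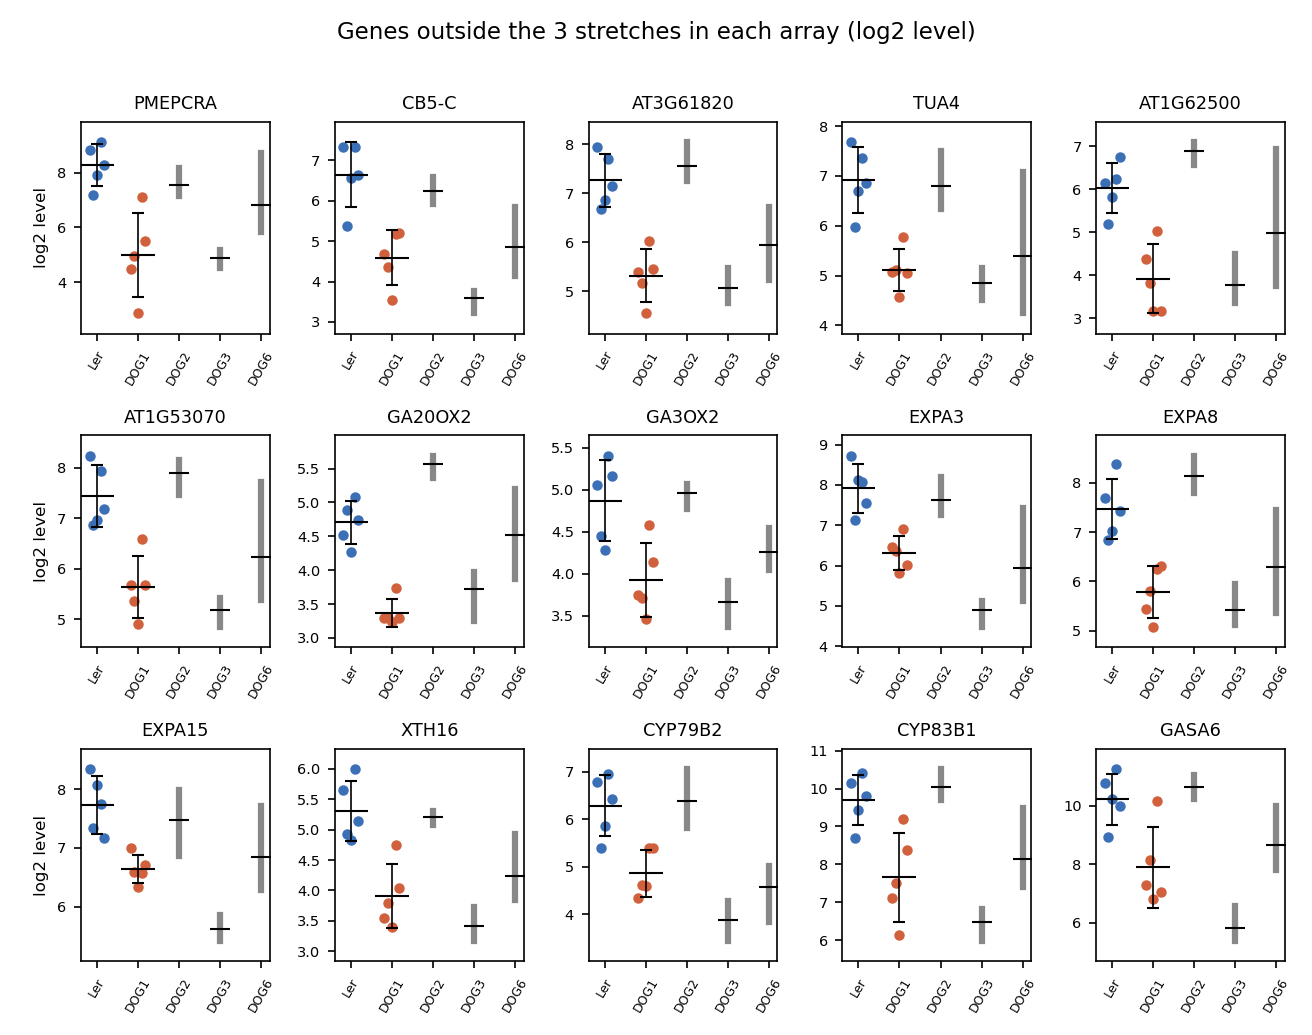
Log2 level of 15 genes outside the 3 stretches; points are the 5 arrays of Ler (blue) and NILDOG1 (DOG1, orange), black lines with caps are mean ± SD, and grey bars with a line are the range and mean of the 3 arrays of each other NIL. For GASA6 NILDOG2 is at 10.63, near Ler, and NILDOG3 at 5.82, below NILDOG1, whereas for GA20OX2 NILDOG2 is at 5.56, above Ler, and NILDOG3 at 3.72.

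Glucosinolates are sulphur-containing defence compounds, of which the indole branch is made from tryptophan. A list of glucosinolate genes, mostly of the indole branch, was drawn up after the values were seen. Of 22 members 6 were lower and 0 higher, with a median of -0.70 and 21 below 0, beside 0.807% of all genes called lower. *CYP79B2* and *CYP83B1*, which catalyse the first steps of the indole branch, differed by -1.42 and -2.04. *SOT17*, a sulphotransferase that prefers glucosinolates made from methionine, differed by -1.30, *AKN2*, which makes the sulphate donor, by -2.20, *CYP81F4* by -1.38 and the methyltransferase *IGMT5* by -2.30 (adjusted p-values from 0.0152 to 0.0413). *CYP83B1* was at 10.14, 8.70, 9.45, 10.42 and 9.80 in L*er* and at 7.12, 7.50, 6.13, 9.19 and 8.37 in NIL*DOG1*. NIL*DOG1* replicate 4 lay above L*er* replicate 2, and the genotypes also overlapped for *AKN2*, *IGMT5*, *SOT17* and *CYP81F4*. NIL*DOG2* was at 10.05, NIL*DOG3* at 6.47 and NIL*DOG6* at 8.15 (7.49 without replicate 1). Against the mean of the other NILs the list had a median of -0.14 and 0 called members. The number called was 14 without L*er* replicate 2, 8 without NIL*DOG1* replicate 4, 9 without NIL*DOG6* replicate 1 and 0 without L*er* replicate 1 or 4. It was 4 without NIL*DOG1* replicate 5, 2 without NIL*DOG1* replicate 2 or L*er* replicate 3, and 1 without NIL*DOG1* replicate 1 or 3 or L*er* replicate 5.

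Other called genes outside the stretches, also picked after their values were seen, were lower as well. *GASA6*, a gibberellin-regulated gene that promotes germination, was at 10.76, 8.93, 10.21, 11.24 and 9.98 in L*er* and at 7.28, 8.15, 6.79, 10.18 and 7.05 in NIL*DOG1*. NIL*DOG1* replicate 4 lay among the L*er* values (difference -2.34, adjusted p = 0.0404), and the call was lost without any of 8 arrays, up to an adjusted p of 0.14. The extensin-like *ELP* differed by -2.23, the thaumatin-like *ATLP-1* by -2.58, *G-TMT*, which makes alpha-tocopherol, by -2.09 and the beta tubulin *TUB1* by -1.47. Among transporters, the auxin carriers *PIN4* (-0.97) and *ABCB19* (-1.10) and the aquaporin *PIP1C* (-1.47) were lower without overlap. Each of these 7 calls was lost without L*er* replicate 1, and each but that of *PIN4* without L*er* replicate 4. Counted by name over the whole genome, 2 of 11 tubulins were lower (median of the group -0.51), 4 of 44 glutathione S-transferases were lower (median 0.04), *GSTT1* of the middle stretch of chromosome 5 among them, and 4 of 215 cytochromes P450 were lower and 1 higher (median 0.06), beside 0.807% of all genes called lower.

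**Figure D5:**
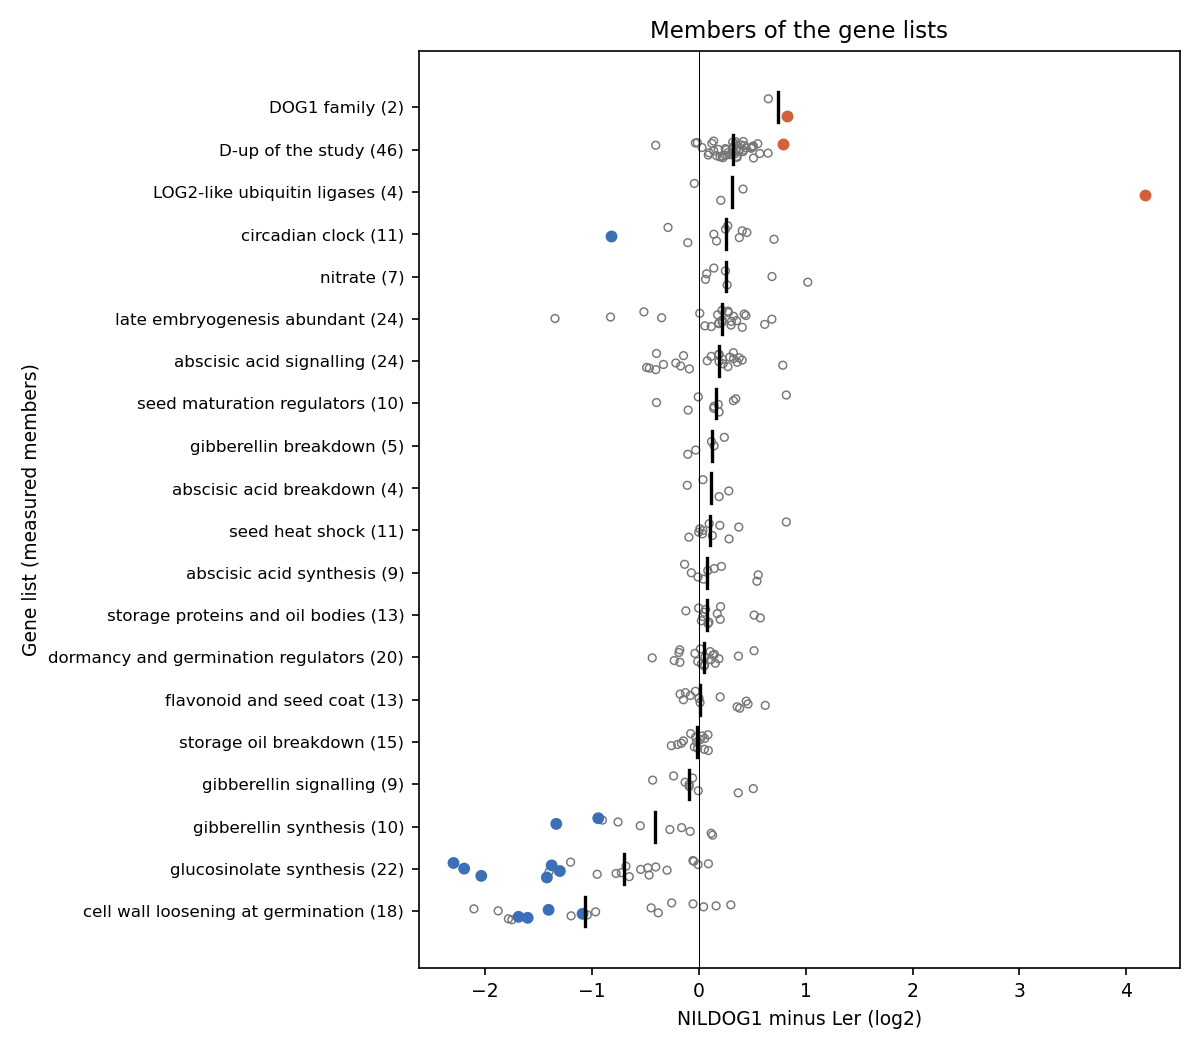
Difference in log2 level between NILDOG1 and Ler for each measured member of the gene lists described above, marker lists left out, ordered by the list median (black line), with the number of measured members in brackets; filled points are genes called at an adjusted p under 0.05 (orange higher, blue lower) and open points the others. The list of cell wall loosening has the lowest median (-1.07), and the rightmost point is LUL1 (4.18).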

How the data were processed

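RNA of whole seeds was hybridized to ATH1 GeneChips, and the authors deposited log2 values after RMA normalization, which removes background, brings the arrays to one distribution and combines each probe set into a single value. The probe annotation, genome build and RMA version are not given in the sources used here. Samples were grouped by title. One linear model of the 5 genotype means was fitted to all 19 arrays with limma 3.58.1 in R 4.3.3 (lmFit, eBayes, no covariate, no filter), with Benjamini-Hochberg adjustment over 21313 genes. It has 14 residual degrees of freedom, and the code was tested on simulated data. Differences are on the log2 scale. Symbols came from RefSeq TAIR10.1 (21205 matched, 99.5%), and chromosomes and gene order from the AGI codes; no coordinates or sequences were used. RefSeq gave names without descriptions, so planned groups by description words were not formed.

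Named by rule were the 7 largest gains and falls on chromosome 5 and on the other chromosomes among called genes without overlap, *DOG1*, and called members of 24 lists, 1 of which is not reported here. Members and lists were chosen with earlier results of these data known. Tables were made in Python 3.11.15 with pandas 2.3.3 and numpy 2.4.6. Alternatives were other thresholds, a low-value filter, scaling, variance models, array weights, replicate terms and leaving out arrays. After-ripened seeds were not analysed here.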

Additional observations from a re-analysis of the deposited data

Results flagged for a closer look

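Among 76 groups of 5 arrays (38 named genes in each genotype), 3 had an array set apart from the other 4, where chance alone gives about 1 in 20 groups. The measure is the gap from the end array to its neighbour as a share of the group's range, with 0.71 as the limit. AT5G48350 in L*er* replicate 3 was at 5.84, against 5.13 in the next array (share 0.792). AT4G18975 in NIL*DOG1* replicate 5 was at 4.71, against 5.85 (share 0.841). *GA20OX2* in NIL*DOG1* replicate 4 was at 3.73, against 3.3 (share 0.865).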

How the results depend on the processing

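The 250 genes called against L*er* numbered 93 with the adjusted p held to 0.01, 22 with 1e-04, and 126 with an unadjusted threshold of 1e-04. There were 491 with array weights, 389 without NIL*DOG6* replicate 1, 79 with replicates 1 to 3 only and 56 with replicates 4 and 5 only. The other settings gave 194 to 338. The setting of replicates 4 and 5 only dropped replicates 1 to 3 of L*er* and NIL*DOG1* and kept all arrays of the other NILs. Leaving out 1 L*er* or NIL*DOG1* array gave 124 to 682, with 124 without L*er* replicate 4, 128 without L*er* replicate 1, 162 without L*er* replicate 5, 152, 153 and 151 without NIL*DOG1* replicates 1, 2 and 3, and 682 without L*er* replicate 2, which kept 245 of the 250. The 22 genes at 1e-04 became 8 with L*er* and NIL*DOG1* alone, 9 with replicates 1 to 3 only, 4 with replicates 4 and 5 only, and 14 to 24 without 1 L*er* or NIL*DOG1* array (14 without NIL*DOG1* replicate 1 or L*er* replicate 3, and 28 without NIL*DOG6* replicate 1). The 279 genes called against the other NILs became 128 at 0.01, 42 at 1e-04, 150 at an unadjusted p under 1e-04, 438 with array weights, 904 with replicates 1 to 3 only, 1434 with a term for the replicate set, and 173 to 346 without 1 NIL*DOG1* array (175 and 173 without replicates 2 and 3). The causes were not tested. With the replicate number as a block, 338 genes were called against L*er* and 1322 against the other NILs, and 18 at 1e-04. The deviations of same-numbered L*er* and NIL*DOG1* arrays from their genotype means correlated with r = 0.29, -0.10, 0.19, 0.18 and 0.11. Only replicate 1 correlated best with its own number. NIL*DOG1* replicates 2, 3, 4 and 5 correlated best with L*er* replicates 3, 2, 5 and 4 (r = 0.30, 0.46, 0.22 and 0.38). Replicates 4 and 5 of both genotypes correlated at 0.11 to 0.38 with each other. Whether the numbers mark shared blocks is not given in the labels, so pairing was neither assumed nor excluded. Of 38 named genes 14 stayed past the threshold under every alternative, 127 of 836 values did not pass, and 0 reversed. The number of arrays limits precision, and levels near 3 lie at the low end of the scale.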
